A study of Homo sapiens with 40 samples.

Results

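The genes described here encode the switch that sets the activity of translation initiation factor eIF2: the kinases EIF2AK1, EIF2AK2, EIF2AK3 and EIF2AK4, the phosphatase subunits PPP1R15A and PPP1R15B, and the eIF2 subunits EIF2S1, EIF2S2 and EIF2S3. Their rows were taken by symbol. All 9 were found among the 28278 gene symbols of the count table, and all 9 were among the 16739 genes that passed a filter on low counts. eIF2 brings the initiator methionyl-tRNA to the ribosome. In the integrated stress response (ISR), a kinase phosphorylates the alpha subunit of eIF2, and phosphorylated eIF2 holds its exchange factor eIF2B, which lowers general initiation while translation of ATF4 mRNA goes up. EIF2AK1 encodes HRI, which in human cell lines is activated by the mitochondrial protein DELE1, EIF2AK2 encodes PKR, which senses double-stranded RNA, EIF2AK3 encodes PERK of the endoplasmic reticulum, and EIF2AK4 encodes GCN2, which senses uncharged tRNA. PPP1R15A (GADD34) and PPP1R15B (CReP) bring protein phosphatase 1 to eIF2 and so reverse the kinases. The measurements are of mRNA, and neither the proteins nor the phosphorylation of eIF2 was measured.

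RNA was measured in HEK293T cells, a human embryonic kidney line, of 5 lines under 2 treatments. Each of the 10 groups had 4 libraries, which makes 40. The first line has a knockout of SLC25A12, the mitochondrial aspartate and glutamate carrier, and carries both SLC25A12-F137S and a DELE1 construct named dMTS-DELE1 (dMTS-DELE1 cells). The second has the knockout with SLC25A12-F137S (F137S cells), and the third is labelled as the knockout with SLC25A12-WT. The fourth is the knockout with vector (KO-vector cells), and the fifth is wild type with vector (WT-vector cells). Each line received antimycin A, which blocks electron transfer at complex III, at 40 nM, or vehicle, both over 6 hours. The series is about SLC25A12 in mitochondrial stress signalling. The labels call the libraries biological replicates without saying whether they were separate cultures, so the p-values measure the spread between libraries, which may be technical. The labels do not give the promoters of the transgenes, or whether a line was a single clone.

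The libraries held 30730335 to 31965438 counts, and the 9 genes had 659 to 23389 counts per library. SLC25A12 mRNA checked the labels. In vehicle it averaged 3716 CPM in dMTS-DELE1 cells, 1853 CPM in F137S cells, 3.08 CPM in KO-vector cells and 38.7 CPM in WT-vector cells, where CPM expresses the count of a gene relative to the total of its library after TMM scaling. The libraries labelled KO with SLC25A12-WT stood at 38.9 CPM in vehicle and 29.9 CPM under antimycin A, against 38.7 and 30.6 CPM in WT-vector cells, which is the native level and not that of a transgene like SLC25A12-F137S. They are therefore called by their label throughout, and leaving them out of the fit changed 1 call of the 9 genes, given with PPP1R15A. DELE1 averaged 5344 CPM in dMTS-DELE1 cells, against 45.9 CPM in F137S cells, both in vehicle. Of 9 HEK293 lineage markers, 7 had medians over all libraries from 47.2 CPM (INA) to 404 CPM (VIM), PAX2 stood at 2.54 CPM and LHX1 at 0.394 CPM. The 13 markers of other cell types had medians from 0 CPM (PTPRC, CD3E, UMOD, AQP2, COL1A2 and CDH5) to 18.4 CPM (COL1A1), with LRP2 of the proximal tubule at 6.19 CPM.

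Per kilobase of exon, the gamma and beta subunits of eIF2 were the most abundant transcripts of the set and PERK the least. In WT-vector cells in vehicle, EIF2S3, the gamma subunit that binds GTP and the tRNA, stood at 209 ± 3.1 CPM per kb and EIF2S2, the beta subunit, at 101 ± 2.1 CPM per kb (mean ± SD, n = 4 here and below). EIF2AK1 followed at 43.4 ± 0.83, PPP1R15B at 35.7 ± 0.90, EIF2S1, the alpha subunit that the kinases phosphorylate, at 29.8 ± 0.36 and EIF2AK2 at 14.7 ± 0.50 CPM per kb. The lowest levels per kb were those of PPP1R15A (7.66 ± 0.42), EIF2AK4 (7.55 ± 0.35) and EIF2AK3 (5.41 ± 0.27). PPP1R15A and EIF2AK4 differed by less than their SD, while each other neighbour in this order differed by more than its SD. With the length of the longest coding transcript in place of all exons, EIF2AK4 came to 16.4 CPM per kb and moved above EIF2AK2 (15.7 CPM per kb) and PPP1R15A (9.96 CPM per kb), and EIF2S1 (37.5 CPM per kb) moved above PPP1R15B (35.7 CPM per kb). In dMTS-DELE1 cells PPP1R15A reached 48.5 ± 1.6 CPM per kb of exon under antimycin A and 35.3 ± 1.5 CPM per kb in vehicle, which put it above EIF2AK1 (42.7 ± 1.1 CPM per kb) under antimycin A and above EIF2S1 (28.3 ± 0.47 CPM per kb) in vehicle.

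PPP1R15A, the stress-induced phosphatase subunit, had the largest changes of the 9 genes in each antimycin A response and in the comparison of dMTS-DELE1 with F137S cells. It lies on GRCh38 at chr19:48872392-48876057 on the plus strand. PPP1R15B, its paralog that is known to be expressed without stress, lies at chr1:204403387-204411791 on the minus strand. Their promoters are printed because both transcripts rose under antimycin A in each of the 5 lines. EIF2AK1 also rose in each line, but no RefSeq promoter window was matched for it. The 250 bases before the RefSeq start (GRCh38.p14) are given 5′ to 3′ on the strand of the gene, at chr19:48872171-48872420 for PPP1R15A and chr1:204411818-204412067 for PPP1R15B. The gene coordinates are from GENCODE, whose starts differ from those of RefSeq. The PPP1R15A window runs past the GENCODE start at 48872392, and the PPP1R15B window stops short of the one at 204411791. Capitals mark TGACGTCA and TATAAA in PPP1R15A, and TGATGCAA in PPP1R15B.
PPP1R15A: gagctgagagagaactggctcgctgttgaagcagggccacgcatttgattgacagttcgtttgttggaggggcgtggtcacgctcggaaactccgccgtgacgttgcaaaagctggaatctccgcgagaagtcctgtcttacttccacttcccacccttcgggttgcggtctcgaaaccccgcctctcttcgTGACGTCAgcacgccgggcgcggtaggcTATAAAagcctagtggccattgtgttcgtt
PPP1R15B: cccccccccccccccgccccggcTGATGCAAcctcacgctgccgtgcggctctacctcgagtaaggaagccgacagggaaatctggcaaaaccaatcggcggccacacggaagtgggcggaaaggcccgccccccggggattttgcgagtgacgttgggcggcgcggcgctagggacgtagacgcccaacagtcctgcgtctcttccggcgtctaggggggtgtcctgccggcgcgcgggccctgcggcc
TGACGTCA, the cAMP response element, began 58 bases before the start of PPP1R15A, and 1.646% of 35116 RefSeq promoter windows of this length held it on either strand. TATAAA began 30 bases before the start of PPP1R15A and was in 10.716% of the windows. TGATGCAA began 227 bases before the start of PPP1R15B and is a match to TGATGNAA, the core of the element that C/EBP and ATF factors bind together, which 3.144% of the windows held. RefSeq windows were matched for 7 of the 9 genes, not for EIF2AK1 and EIF2S2. The motif TGATGNAA was in the window of PPP1R15B alone among the 7, and TGACGTCA and TATAAA were in that of PPP1R15A alone. The endoplasmic reticulum stress element (CCAAT, any 9 bases, CCACG) was in 0 of the 7, against 0.074% of all windows. Its CCACG end, which overlaps that element, was in 33.509% of all windows and was matched 2 times in PPP1R15A, 3 times in EIF2AK4 and 1 time in EIF2AK2. These matches describe letters and are not measured binding sites.

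Antimycin A raised PPP1R15A in each of the 5 lines, and in each line every antimycin A library was above every vehicle library. In WT-vector cells PPP1R15A stood at 36.8, 39.3, 41.0 and 35.6 CPM under antimycin A, against 22.6, 24.5, 22.6 and 25.1 CPM in vehicle. In KO-vector cells it stood at 35.8, 35.6, 37.5 and 33.6 CPM under antimycin A, against 25.4, 27.6, 24.4 and 24.7 CPM in vehicle. The change was 0.69 ± 0.05 in WT-vector cells (log2 fold change ± SE from edgeR's quasi-likelihood fit over all 40 libraries, adjusted p = 9.1e-22 by Benjamini-Hochberg over 16739 genes). In KO-vector cells it was 0.48 ± 0.05 (edgeR adjusted p = 1.5e-14). A gene is said to rise or fall where this adjusted p was below 0.05. The knockout's response was lower by 0.21 ± 0.07 on the log2 scale, which did not pass (difference -0.21, 95% interval -0.34 to -0.08, edgeR adjusted p = 0.10), and it passed without replicate 4 of WT-vector cells under antimycin A (adjusted p = 0.0494). Those labelled KO with SLC25A12-WT gave a change of 0.69 ± 0.05 (edgeR adjusted p = 8.4e-22), with 38.6 ± 2.5 CPM under antimycin A and 24.0 ± 1.2 CPM in vehicle.

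The dMTS-DELE1 construct went with a far larger change in PPP1R15A than antimycin A did in any line. In vehicle, PPP1R15A stood at 108, 115, 104 and 109 CPM in dMTS-DELE1 cells, against 27.6, 28.0, 26.6 and 28.7 CPM in F137S cells. Under antimycin A it stood at 157, 148, 147 and 148 CPM in dMTS-DELE1 cells, against 38.1, 41.4, 41.7 and 39.2 CPM in F137S cells. In both treatments every dMTS-DELE1 library was far above every F137S library, and the spread within a group was a small part of the gap. The log2 fold change was 1.98 ± 0.04 in vehicle (3.94-fold, edgeR adjusted p = 5.7e-52) and 1.90 ± 0.04 under antimycin A (3.74-fold, edgeR adjusted p = 6.9e-52). Antimycin A still raised PPP1R15A in dMTS-DELE1 cells, by 0.46 ± 0.04 (edgeR adjusted p = 8.3e-16), against 0.53 ± 0.05 in F137S cells (edgeR adjusted p = 9.2e-17). These 2 responses differed by -0.07 ± 0.06 (95% interval -0.20 to 0.05, edgeR adjusted p = 0.51), so a difference in response was not detected, and the interval leaves out one beyond 0.20 in size. The dMTS-DELE1 cells also had more SLC25A12 mRNA than F137S cells, at 3716 CPM against 1853 CPM in vehicle, and the part of this in the differences between the 2 lines was not tested.

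PPP1R15B rose with antimycin A in each of the 5 lines, by 0.27 to 0.36 on the log2 scale, and it was higher in KO-vector than in WT-vector cells, a comparison that PPP1R15A did not pass. Under antimycin A, PPP1R15B stood at 288, 272, 277 and 286 CPM in KO-vector cells, against 224, 232, 234 and 231 CPM in WT-vector cells. In vehicle it stood at 229, 229, 226 and 232 CPM in KO-vector cells, against 182, 188, 192 and 184 CPM in WT-vector cells. The 2 lines did not overlap in either treatment, and the level of KO-vector cells in vehicle was near that of WT-vector cells under antimycin A. The knockout difference was 0.28 ± 0.02 under antimycin A (edgeR adjusted p = 3.8e-19) and 0.30 ± 0.02 in vehicle (edgeR adjusted p = 1.5e-19). Libraries labelled KO with SLC25A12-WT were lower than KO-vector cells by 0.27 on the log2 scale in both treatments (log2 fold change -0.27 ± 0.02 each, edgeR adjusted p = 7.1e-18 under antimycin A and 1.5e-17 in vehicle).

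The antimycin A response of PPP1R15B was 0.36 ± 0.02 in dMTS-DELE1 cells, 0.27 ± 0.02 in F137S cells, 0.30 ± 0.02 in the libraries labelled KO with SLC25A12-WT, 0.30 ± 0.02 in KO-vector cells and 0.31 ± 0.02 in WT-vector cells, with edgeR adjusted p from 1.0e-23 to 6.0e-18. In no line did antimycin A and vehicle libraries overlap. The responses of KO-vector and WT-vector cells differed by -0.01 ± 0.03 (95% interval -0.07 to 0.05, edgeR adjusted p = 0.94). In vehicle, PPP1R15B stood at 235, 229, 232 and 232 CPM in dMTS-DELE1 cells, against 223, 235, 238 and 232 CPM in F137S cells, and these overlapped (log2 fold change -0.00 ± 0.02, edgeR adjusted p = 0.97). Under antimycin A it stood at 293, 297, 299 and 302 CPM in dMTS-DELE1 cells, against 277, 282, 284 and 276 CPM in F137S cells. Here the 2 lines no longer overlapped (0.09 ± 0.02, edgeR adjusted p = 0.00033). The dMTS-DELE1 response exceeded the F137S response by 0.09 ± 0.03 (edgeR adjusted p = 0.042). That call was lost without any 1 of 10 libraries (adjusted p from 0.0563 to 0.118): replicate 2, 3 or 4 of dMTS-DELE1 cells under antimycin A, 2 or 4 of those in vehicle, 1 or 4 of F137S cells under antimycin A, and 2, 3 or 4 of those in vehicle.

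Read as a ratio within a library, which no scaling between libraries can move, PPP1R15A counts were 50.4% ± 2.2 of PPP1R15B counts in dMTS-DELE1 cells under antimycin A and 47.1% ± 2.3 in vehicle. In F137S cells the ratio was 14.3% ± 0.45 under antimycin A and 11.95% ± 0.56 in vehicle. In KO-vector cells it was 12.7% ± 0.78 under antimycin A and 11.2% ± 0.63 in vehicle, against 16.6% ± 0.89 and 12.7% ± 0.82 in WT-vector cells. The ratio in KO-vector cells under antimycin A was thus at the level of WT-vector cells in vehicle, although both transcripts were higher in the former. PPP1R15A averaged 35.6 CPM there against 23.7 CPM, and PPP1R15B 281 CPM against 186 CPM.

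**Figure D1:**
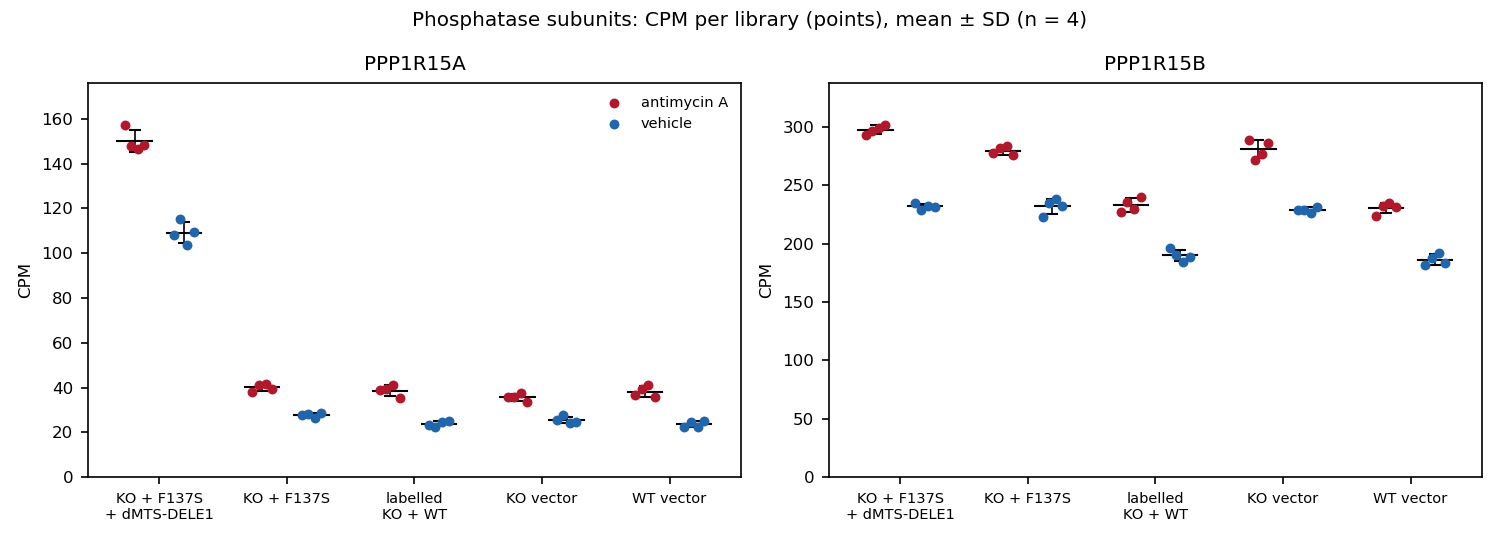
CPM of PPP1R15A (left) and PPP1R15B (right) in each library (points), by line and treatment, with mean ± SD of 4 libraries per group; the vertical axes start at 0. PPP1R15A in dMTS-DELE1 cells lies above 100 CPM and in each other group below 45 CPM. PPP1R15B is higher under antimycin A than in vehicle in each line, and higher in KO-vector than in WT-vector cells in each treatment. The libraries labelled KO with SLC25A12-WT lie near WT-vector cells for PPP1R15B.

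Among the kinases, EIF2AK1 (HRI, chr7:6022244-6059230, minus strand) was the one that rose with antimycin A in each line, by small amounts, and EIF2AK3 was the one that followed the lines most. EIF2AK1 stood at 264, 269.6, 273 and 263 CPM under antimycin A in WT-vector cells, against 238, 247, 237 and 241 CPM in vehicle, with no overlap. The log2 fold change of EIF2AK1 with antimycin A was 0.09 ± 0.02 in dMTS-DELE1 cells, 0.06 ± 0.02 in F137S cells, 0.08 ± 0.02 in the libraries labelled KO with SLC25A12-WT, 0.08 ± 0.02 in KO-vector cells and 0.15 ± 0.02 in WT-vector cells. The edgeR adjusted p ran from 1.0e-08 in WT-vector cells to 0.018 in F137S cells. The F137S call was lost without the filter on low counts (adjusted p = 0.0806) and without replicate 4 of F137S cells under antimycin A (adjusted p = 0.0550). Antimycin A and vehicle libraries overlapped in those labelled KO with SLC25A12-WT and in no other line. The response of KO-vector cells was below that of WT-vector cells by 0.07 on the log2 scale, which did not pass (-0.07 ± 0.03, edgeR adjusted p = 0.31).

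EIF2AK1 was slightly lower in the cells that carried its activator's construct. In vehicle it stood at 222, 221, 227 and 222 CPM in dMTS-DELE1 cells, against 239, 239, 243 and 237 CPM in F137S cells, with no overlap (log2 fold change -0.10 ± 0.02, edgeR adjusted p = 5.7e-05). Under antimycin A it stood at 245, 234, 237 and 231 CPM in dMTS-DELE1 cells, against 249, 251, 246 and 253 CPM in F137S cells, again with no overlap (-0.08 ± 0.02, edgeR adjusted p = 0.0020). KO-vector cells were below WT-vector cells under antimycin A (-0.08 ± 0.02, edgeR adjusted p = 0.0011), with no overlap, and gave -0.01 ± 0.02 in vehicle (edgeR adjusted p = 0.73). EIF2AK1 shares 532 exon bases, or 9.59% of its exons, with AIMP2 on the opposite strand, and the sources used here do not say whether counting used strand. Without strand, reads from those bases cannot be told apart, and AIMP2 had at most 45.4 CPM in any library. AIMP2 fell with antimycin A in 4 lines, by 0.10 in WT-vector cells (SE 0.04, edgeR adjusted p = 0.044), and gave -0.09 ± 0.04 in dMTS-DELE1 cells (edgeR adjusted p = 0.10). Between lines, AIMP2 was lower in KO-vector than in WT-vector cells under antimycin A (-0.15 ± 0.04, edgeR adjusted p = 0.0022), the same direction as EIF2AK1 there. In dMTS-DELE1 against F137S cells under antimycin A it was higher (0.17 ± 0.04, edgeR adjusted p = 0.00053), the opposite direction to EIF2AK1. The part of AIMP2 reads in the EIF2AK1 values was not tested.

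EIF2AK3 (PERK, chr2:88556741-88627576, minus strand) was lower in KO-vector than in WT-vector cells, and higher in dMTS-DELE1 than in F137S cells. In vehicle it stood at 24.3, 23.7, 24.8 and 23.9 CPM in KO-vector cells, against 27.6, 28.8, 30.2 and 30.9 CPM in WT-vector cells. Under antimycin A it stood at 24.8, 20.6, 20.4 and 23.0 CPM in KO-vector cells, against 26.6, 28.7, 25.4 and 28.1 CPM in WT-vector cells. Neither pair of groups overlapped. The knockout difference was -0.28 ± 0.05 in vehicle (edgeR adjusted p = 5.6e-06) and -0.29 ± 0.05 under antimycin A (edgeR adjusted p = 3.1e-06). The libraries labelled KO with SLC25A12-WT were above KO-vector cells by 0.24 ± 0.05 in vehicle (edgeR adjusted p = 0.00010) and by 0.27 ± 0.05 under antimycin A (edgeR adjusted p = 1.7e-05), without overlap.

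With dMTS-DELE1, EIF2AK3 stood at 31.1, 26.8, 29.5 and 27.6 CPM in vehicle, against 24.8, 24.7, 25.6 and 25.3 CPM in F137S cells. Under antimycin A it stood at 31.0, 32.0, 30.5 and 29.9 CPM in dMTS-DELE1 cells, against 23.1, 24.0, 23.5 and 22.9 CPM in F137S cells. Every dMTS-DELE1 library was above every F137S library in both treatments, and the gap was wider under antimycin A. The log2 fold change was 0.20 ± 0.05 in vehicle (edgeR adjusted p = 0.0016) and 0.40 ± 0.05 under antimycin A (edgeR adjusted p = 7.4e-10). EIF2AK3 did not pass for antimycin A in any line, with log2 fold changes of 0.10 ± 0.05 in dMTS-DELE1 cells, -0.10 ± 0.05 in F137S cells, -0.09 ± 0.05 in the libraries labelled KO with SLC25A12-WT, -0.12 ± 0.05 in KO-vector cells and -0.11 ± 0.05 in WT-vector cells (edgeR adjusted p from 0.053 to 0.14). It passed in KO-vector cells with DESeq2 size factors (adjusted p = 0.0484), with the DESeq2 Wald test (adjusted p = 0.0475) and without replicate 1 or 4 under antimycin A (adjusted p = 0.00620 and 0.0429). It also passed in WT-vector cells without replicate 2 under antimycin A or 1 in vehicle (adjusted p = 0.0385 and 0.0349), and in dMTS-DELE1 cells without replicate 1 in vehicle (adjusted p = 0.0432). The difference between the dMTS-DELE1 and F137S responses was 0.20 ± 0.07 and did not pass either (edgeR adjusted p = 0.062), but it passed with the DESeq2 Wald test (adjusted p = 0.0358) and without replicate 1 or 3 of dMTS-DELE1 cells in vehicle (adjusted p = 0.0260 and 0.0498). EIF2AK3 counts were 13.0% ± 0.43 of EIF2AK1 counts in dMTS-DELE1 cells under antimycin A, against 9.37% ± 0.24 in F137S cells, and 12.9% ± 0.86 against 10.5% ± 0.16 in vehicle. The antisense genes AC104134.1 and AC062029.1 share 781 (14.37%) and 38 (0.7%) exon bases with EIF2AK3. Neither symbol was in the count table, so their own levels are not known here. Without strand, reads from the shared bases cannot be told apart, and their part in the EIF2AK3 values was not tested.

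EIF2AK2 (PKR, chr2:37099210-37157065, minus strand) did not pass in any of the 20 comparisons. Its group means ran from 153 CPM in KO-vector cells in vehicle to 168 CPM in dMTS-DELE1 cells under antimycin A, and its groups overlapped in each comparison of 2 groups. Its smallest adjusted p among the line comparisons was for dMTS-DELE1 against F137S cells under antimycin A (0.06 ± 0.03, edgeR adjusted p = 0.079), and that one passed with DESeq2 size factors (adjusted p = 0.0287), with the DESeq2 Wald test (adjusted p = 0.0334) and without the filter (adjusted p = 0.0454). It also passed there without replicate 1 of dMTS-DELE1 cells or replicate 1 or 2 of F137S cells (adjusted p from 0.00652 to 0.0361), and for antimycin A in dMTS-DELE1 cells without that replicate 1 (adjusted p = 0.0338). EIF2AK2 shares 35 exon bases (0.33%) with GPATCH11 and 401 (3.73%) with the pseudogene AC007899.1, both on the opposite strand. AC007899.1 was not in the count table. GPATCH11 was higher in dMTS-DELE1 than in F137S cells under antimycin A (0.22 ± 0.04, edgeR adjusted p = 1.3e-06). The part of such reads in the EIF2AK2 values was not tested. EIF2AK4 (GCN2, chr15:39934146-40035591, plus strand) was lower in dMTS-DELE1 than in F137S cells. In vehicle EIF2AK4 averaged 86.3 ± 1.3 CPM in dMTS-DELE1 cells, against 94.1 ± 1.5 CPM in F137S cells, with no overlap (-0.12 ± 0.03, edgeR adjusted p = 0.00056). Under antimycin A it averaged 88.4 ± 3.9 CPM in dMTS-DELE1 cells, against 96.8 ± 3.3 CPM in F137S cells, again with no overlap (-0.13 ± 0.03, edgeR adjusted p = 0.00019). KO-vector cells were above WT-vector cells in vehicle by 0.08 ± 0.03 (edgeR adjusted p = 0.029), but the libraries overlapped, and leaving out replicate 1, 3 or 4 of either line ended the call (adjusted p from 0.0518 to 0.132). EIF2AK4 did not pass for antimycin A in any line, with log2 fold changes from 0.03 to 0.07. It passed in the libraries labelled KO with SLC25A12-WT under 4 other settings (adjusted p from 0.0266 to 0.0465) and without their replicate 2 under antimycin A (adjusted p = 0.0393), and in WT-vector cells without replicate 2 in vehicle (adjusted p = 0.0144).

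**Figure D2:**
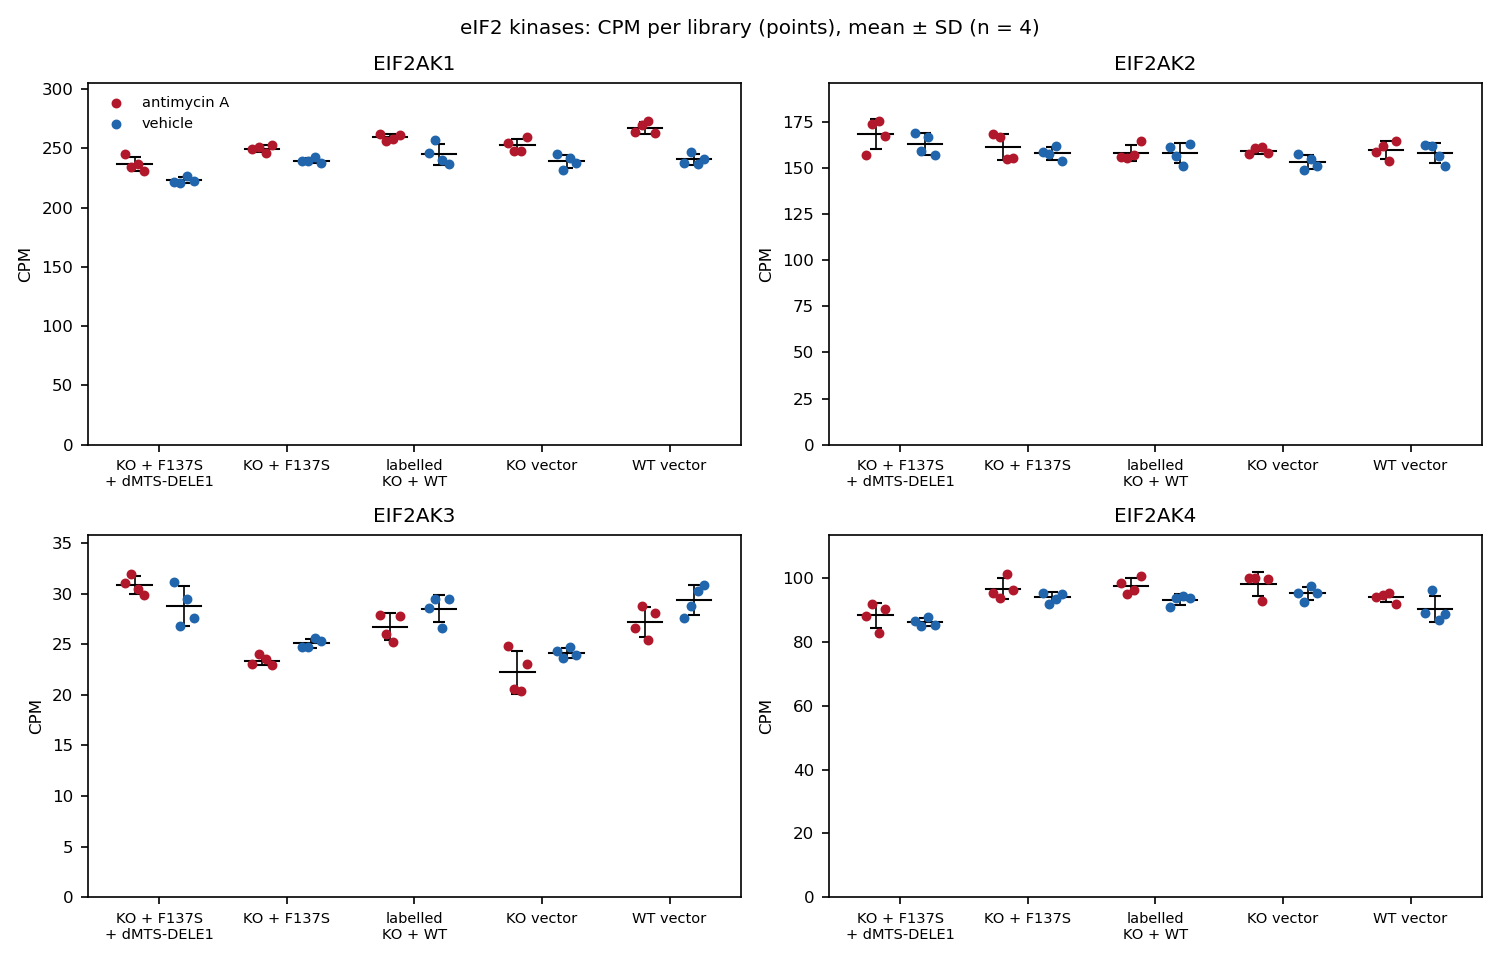
CPM of EIF2AK1, EIF2AK2, EIF2AK3 and EIF2AK4 in each library (points), by line and treatment, with mean ± SD of 4 libraries per group; the vertical axes start at 0 and differ between panels. EIF2AK3 is lowest in KO-vector and F137S cells, and the other kinases stay within a narrow band across the 10 groups.

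The mRNAs of the eIF2 subunits moved apart under antimycin A: EIF2S1 fell, EIF2S2 rose in some lines, and EIF2S3 gave no call. EIF2S1 (alpha subunit, chr14:67359997-67386516, plus strand) stood at 144, 147, 151 and 144 CPM under antimycin A in WT-vector cells, against 171, 167, 168 and 168 CPM in vehicle. In F137S cells it stood at 146, 145, 135 and 139 CPM under antimycin A, against 155, 160.3, 158 and 157 CPM in vehicle. In dMTS-DELE1 cells it stood at 158, 157, 155 and 155 CPM under antimycin A, against 158, 161, 163 and 157 CPM in vehicle. The groups of WT-vector and F137S cells did not overlap, while those of dMTS-DELE1 cells did. EIF2S1 fell by 0.15 on the log2 scale in F137S cells (SE 0.02, edgeR adjusted p = 1.8e-07), by 0.18 in the libraries labelled KO with SLC25A12-WT (SE 0.03, edgeR adjusted p = 4.2e-09), by 0.12 in KO-vector cells (SE 0.02, edgeR adjusted p = 5.0e-05) and by 0.20 in WT-vector cells (SE 0.02, edgeR adjusted p = 8.3e-11). In dMTS-DELE1 cells the change was -0.03 ± 0.02 (95% interval -0.08 to 0.02, edgeR adjusted p = 0.34). The dMTS-DELE1 response differed from the F137S response by 0.12 ± 0.04 (edgeR adjusted p = 0.012).

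That difference appeared as a higher EIF2S1 level in dMTS-DELE1 than in F137S cells under antimycin A (0.14 ± 0.02, edgeR adjusted p = 9.7e-07, no overlap), against 0.02 ± 0.02 in vehicle (edgeR adjusted p = 0.55). KO-vector cells were below WT-vector cells in vehicle (-0.12 ± 0.02, edgeR adjusted p = 4.0e-05), with 157, 158, 149 and 156 CPM in KO-vector cells, against 171, 167, 168 and 168 CPM in WT-vector cells. The libraries labelled KO with SLC25A12-WT were above KO-vector cells in vehicle by 0.07 ± 0.02 (edgeR adjusted p = 0.012). These overlapped, and the call was lost without the filter (adjusted p = 0.104) and without replicate 3 of KO-vector cells (adjusted p = 0.0920) or replicate 1 of those labelled KO with SLC25A12-WT (adjusted p = 0.0570), all in vehicle. EIF2S1 shares 269 exon bases (4.76%) with ATP6V1D on the opposite strand, which had at most 52.8 CPM in any library. With antimycin A, ATP6V1D fell in F137S cells (-0.11 ± 0.04, edgeR adjusted p = 0.017) and KO-vector cells (-0.11 ± 0.04, edgeR adjusted p = 0.020), as EIF2S1 did. It gave 0.01 ± 0.04 in dMTS-DELE1 cells, 0.04 ± 0.04 in the libraries labelled KO with SLC25A12-WT and -0.04 ± 0.04 in WT-vector cells, none of which passed (edgeR adjusted p = 0.89, 0.36 and 0.38). In KO-vector against WT-vector cells in vehicle ATP6V1D was higher (0.13 ± 0.04, edgeR adjusted p = 0.0053), where EIF2S1 was lower. The part of its reads in the EIF2S1 values was not tested.

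EIF2S2 (beta subunit, chr20:34088298-34112332, minus strand) rose with antimycin A in WT-vector cells. It stood at 291, 301, 315 and 313 CPM under antimycin A, against 266, 273, 272 and 260.4 CPM in vehicle, with no overlap (0.19 ± 0.02, edgeR adjusted p = 7.3e-11). In KO-vector cells it stood at 256, 262, 263 and 263 CPM under antimycin A, against 247 to 258 CPM in vehicle. These groups overlapped, and the change of 0.05 ± 0.02 was at the edge of the threshold (edgeR adjusted p = 0.048). It was lost under DESeq2 size factors, no filter, the replicate block, a fit of these groups alone and the DESeq2 Wald test (adjusted p from 0.0511 to 0.141), and without replicate 2, 3 or 4 of either treatment (adjusted p from 0.0749 to 0.143). The KO-vector response was lower than the WT-vector response by 0.13 on the log2 scale (-0.13 ± 0.03, edgeR adjusted p = 0.013), a call lost without replicate 3 of WT-vector cells under antimycin A (adjusted p = 0.0551). In those labelled KO with SLC25A12-WT it rose by 0.15 ± 0.02 (edgeR adjusted p = 1.1e-07). EIF2S2 gave 0.02 ± 0.02 in dMTS-DELE1 cells and 0.03 ± 0.02 in F137S cells, neither of which passed (edgeR adjusted p = 0.47 and 0.35).

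Between lines, EIF2S2 was lower in KO-vector than in WT-vector cells, by -0.22 ± 0.02 under antimycin A (edgeR adjusted p = 1.1e-13) and -0.09 ± 0.02 in vehicle (edgeR adjusted p = 0.00076), without overlap. It was higher in dMTS-DELE1 than in F137S cells by 0.08 ± 0.02 under antimycin A (edgeR adjusted p = 0.0016, no overlap) and by 0.09 ± 0.02 in vehicle (edgeR adjusted p = 0.0015, with overlap). EIF2S3 (gamma subunit, chrX:24054716-24077971, plus strand) was the steadiest of the subunits, with group means from 677 CPM in dMTS-DELE1 cells under antimycin A to 744 CPM in WT-vector cells under antimycin A. EIF2S3 was lower in KO-vector than in WT-vector cells, by -0.11 ± 0.02 under antimycin A (edgeR adjusted p = 2.4e-07) and by -0.08 ± 0.02 in vehicle (edgeR adjusted p = 3.1e-05), without overlap in either. Its lower level in dMTS-DELE1 than in F137S cells under antimycin A was small (-0.04 ± 0.02, edgeR adjusted p = 0.043), and the call was lost in 5 other settings (adjusted p from 0.0587 to 0.259) and without replicate 1, 3 or 4 of dMTS-DELE1 cells or replicate 2 of F137S cells (adjusted p from 0.0536 to 0.199). Antimycin A gave no EIF2S3 call in any line, although WT-vector cells passed with DESeq2 size factors (adjusted p = 0.0369) and the DESeq2 Wald test (adjusted p = 0.0263). EIF2S3B, a copy of EIF2S3 elsewhere in the genome that may share its reads, had 1.75% to 2.28% of the EIF2S3 counts.

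The subunit ratios within a library showed the same separation. EIF2S1 counts were 19.7% ± 0.61 of EIF2S3 counts in WT-vector cells under antimycin A, against 23.1% ± 0.39 in vehicle. In dMTS-DELE1 cells they were 23.1% ± 0.088 under antimycin A, against 23.5% ± 0.45 in vehicle. EIF2S2 counts were 41.0% ± 1.4 of EIF2S3 counts in WT-vector cells under antimycin A, against 36.8% ± 0.49 in vehicle. In KO-vector cells EIF2S2 counts were 37.7% ± 0.77 under antimycin A, against 36.6% ± 0.57 in vehicle. In bulk RNA, fewer cells with a transcript and less of it per cell cannot be told apart.

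**Figure D3:**
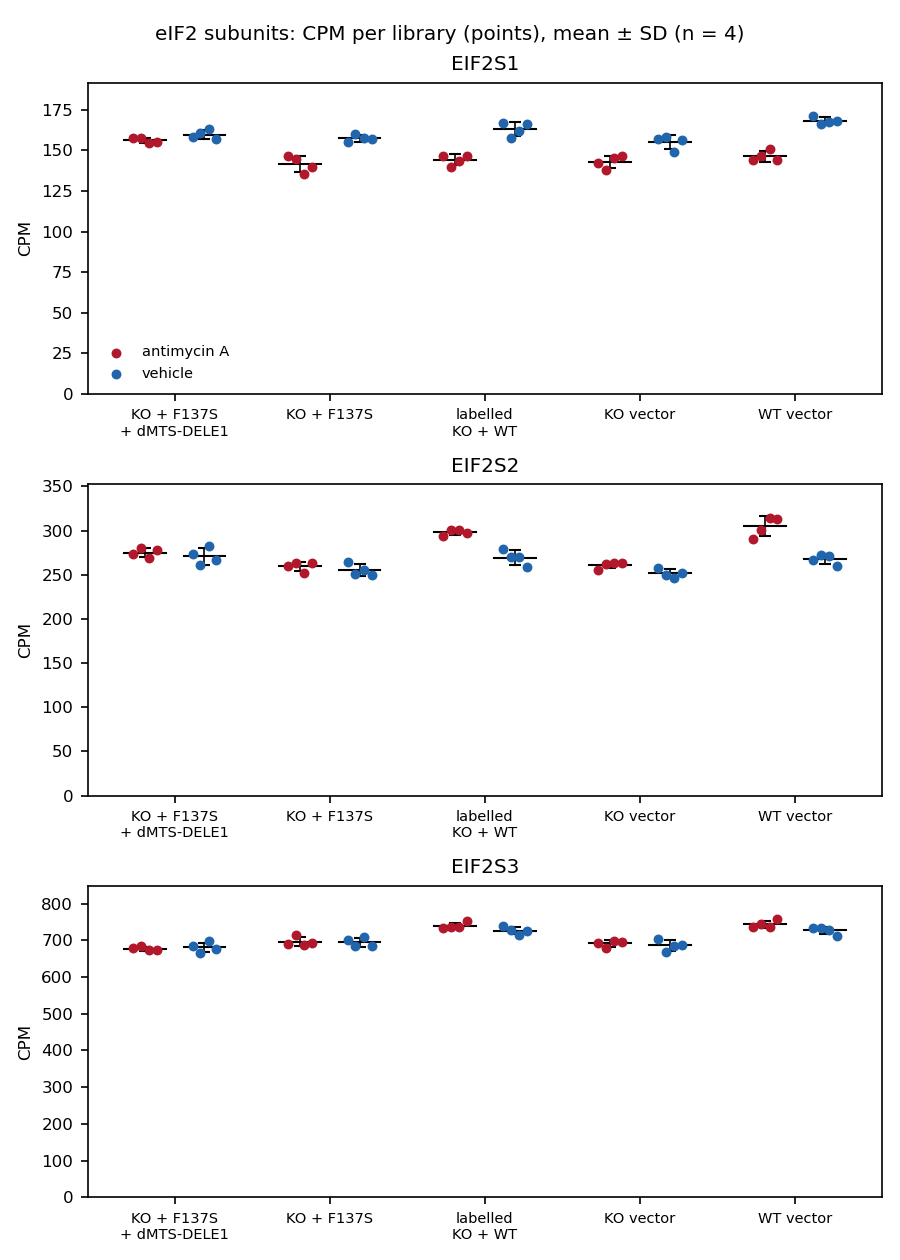
CPM of EIF2S1, EIF2S2 and EIF2S3 in each library (points), by line and treatment, with mean ± SD of 4 libraries per group; the vertical axes start at 0 and differ between panels. EIF2S1 is lower under antimycin A than in vehicle in each line but dMTS-DELE1, where the groups overlap, and EIF2S2 separates by treatment in WT-vector cells and in the libraries labelled KO with SLC25A12-WT.

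Counted over the set, antimycin A changed 3 of the 9 genes in dMTS-DELE1 cells (3 higher), 4 in F137S cells (3 higher, 1 lower) and 5 each in the libraries labelled KO with SLC25A12-WT, in KO-vector cells and in WT-vector cells (4 higher, 1 lower each). Of all tested genes, antimycin A changed 34.9% in dMTS-DELE1 cells, 51.2% in F137S cells, 52.3% in the libraries labelled KO with SLC25A12-WT, 51% in KO-vector cells and 51.9% in WT-vector cells. The counts for the 9 genes were near these shares and did not set the genes apart. With a further minimum of 0.32 in size on the log2 scale, PPP1R15A alone passed in each line but dMTS-DELE1, where PPP1R15A and PPP1R15B did. The shares above are without this minimum, and the share of all tested genes that met it is not given here.

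Between dMTS-DELE1 and F137S cells, 8 of the 9 passed under antimycin A (5 higher, 3 lower) and 5 in vehicle (3 higher, 2 lower), against 54.3% and 41.8% of all tested genes. Between KO-vector and WT-vector cells, 5 passed under antimycin A (1 higher, 4 lower) and 6 in vehicle (2 higher, 4 lower), against 48% and 48.3% of all genes. For the libraries labelled KO with SLC25A12-WT against KO-vector cells, 5 passed in each treatment (4 higher, 1 lower), against 48.2% of all genes under antimycin A and 47.8% in vehicle. One of these, PPP1R15A under antimycin A (0.12 ± 0.05, edgeR adjusted p = 0.027), overlapped and was lost without replicate 1, 2 or 3 of those libraries or replicate 4 of KO-vector cells (adjusted p from 0.0588 to 0.131). PPP1R15A did not pass between KO-vector and WT-vector cells, at -0.10 ± 0.05 under antimycin A (edgeR adjusted p = 0.062) and 0.11 ± 0.05 in vehicle (edgeR adjusted p = 0.061). The first passed in a fit that left out those labelled KO with SLC25A12-WT (adjusted p = 0.0492) and without replicate 3 of KO-vector or replicate 1 or 4 of WT-vector cells (adjusted p from 0.0190 to 0.0445). The second passed with DESeq2 size factors (adjusted p = 0.0420), without the filter (adjusted p = 0.0301) and without replicate 3 of KO-vector or replicate 2 or 4 of WT-vector cells (adjusted p from 0.0278 to 0.0498).

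The SLC25A12-F137S transgene changed 0 of the 9 genes relative to KO-vector cells in either treatment by edgeR, with 1 of the 9 at an unadjusted p below 0.05 in each. That gene was PPP1R15A, at 0.17 ± 0.05 under antimycin A (edgeR adjusted p = 0.16, no overlap) and 0.12 ± 0.05 in vehicle (edgeR adjusted p = 0.71), and it is named because it was the one below that limit. Few genes passed in all, 0.114% under antimycin A (19 genes) and 0.0836% in vehicle (14 genes), and the DESeq2 Wald test called 34 and 24. SLC25A12, the gene of the transgene, was among those edgeR called in each treatment. The libraries labelled KO with SLC25A12-WT against WT-vector cells gave 0 of the 9 by edgeR, also at an unadjusted p below 0.05, with 0.00597% of all genes (1 gene) under antimycin A and 0% (0 genes, 778 at an unadjusted p below 0.05) in vehicle. The DESeq2 Wald test called 1 and 0 genes there, and a fit of those groups alone called 0 and 1.

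For the differences of antimycin A response between lines, 2 of the 9 passed for dMTS-DELE1 minus F137S cells (PPP1R15B and EIF2S1, both higher), against 11.9% of all tested genes. For KO-vector minus WT-vector cells 1 passed (EIF2S2, lower), against 1.57%. For the libraries labelled KO with SLC25A12-WT minus KO-vector cells 0 passed by edgeR (2 of the 9 at an unadjusted p below 0.05), against 1.65%, and PPP1R15A passed there without replicate 4 of those libraries under antimycin A (adjusted p = 0.0291). For F137S minus KO-vector cells 0 of the 9 passed, with 0 at an unadjusted p below 0.05, and 0% of all genes did (711 genes at an unadjusted p below 0.05, 0 by the DESeq2 Wald test and 1 in a fit of those groups alone). For the libraries labelled KO with SLC25A12-WT minus WT-vector cells 0 of the 9 passed (1 at an unadjusted p below 0.05), and 0% of all genes did (756 at an unadjusted p below 0.05, 0 by the DESeq2 Wald test).

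**Figure D4:**
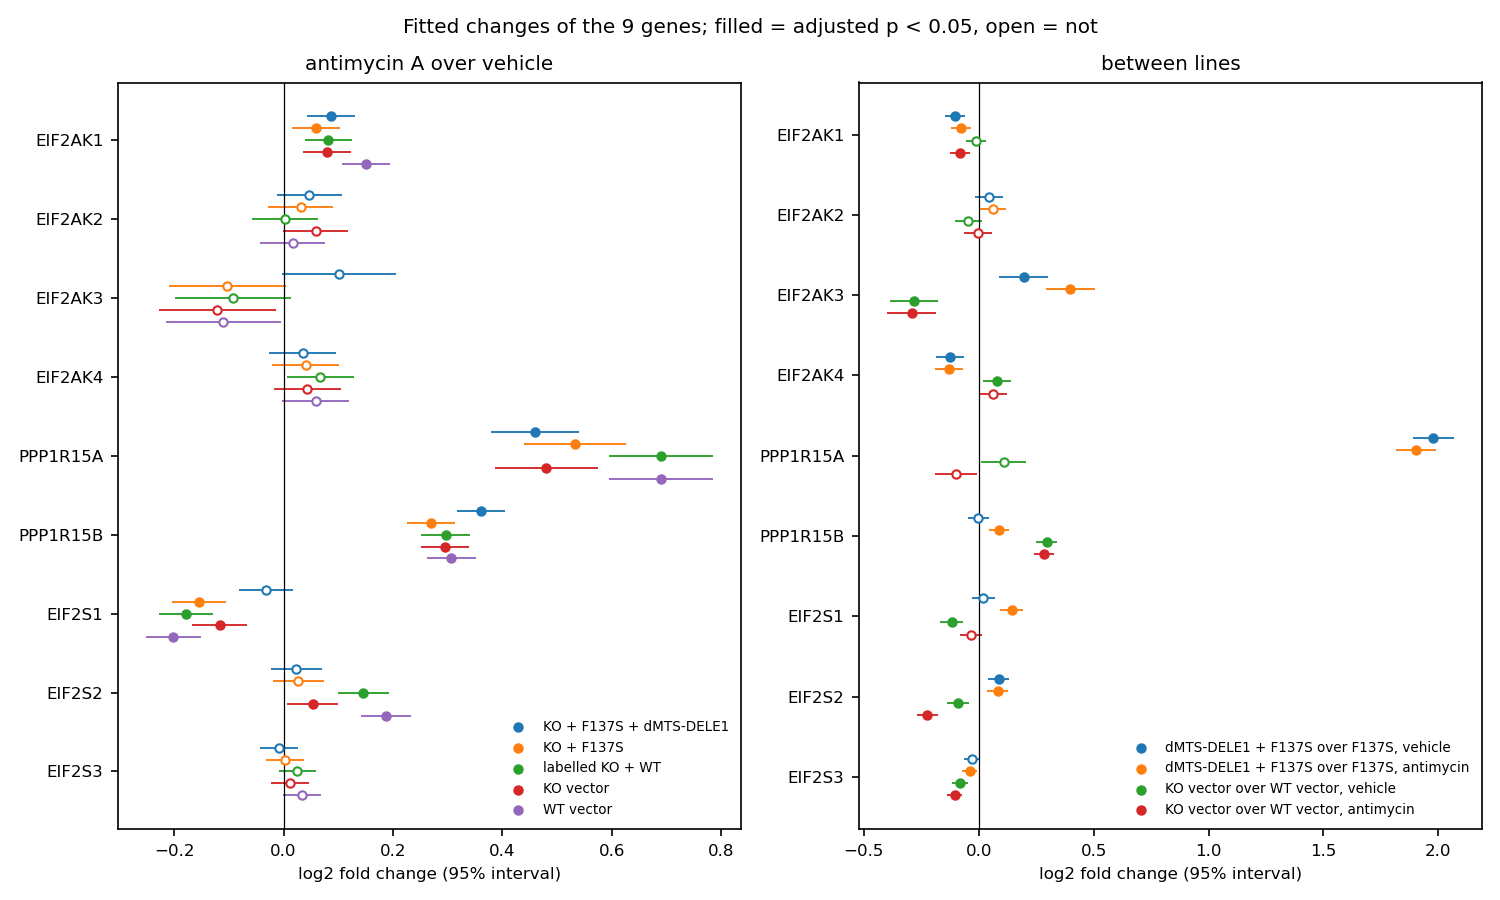
Log2 fold changes of the 9 genes with 95% intervals from edgeR, for antimycin A over vehicle in each line (left) and for dMTS-DELE1 over F137S and KO-vector over WT-vector cells in each treatment (right, with a wider axis); filled points had an adjusted p below 0.05. PPP1R15A stands apart on the right at 1.98 and 1.90, and most other changes lie within 0.4 of 0.

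The genes around eIF2 were taken from lists that were chosen with earlier results of these data known. Of the 5 eIF2B subunits, which recharge eIF2 with GTP, 0 rose and 3 fell in dMTS-DELE1 against F137S cells in vehicle, with a median log2 fold change of -0.15. Over all tested genes 17.7% rose and 24.1% fell there, with a median of -0.02. EIF2B3 fell by 0.27 (SE 0.04, edgeR adjusted p = 1.3e-09), EIF2B1 fell by 0.17 (SE 0.03, edgeR adjusted p = 4.9e-07) and EIF2B5 fell by 0.15 (SE 0.03, edgeR adjusted p = 1.0e-05). With antimycin A, 0 rose and 0 fell in dMTS-DELE1 cells, 0 rose and 3 fell in each of F137S cells, the libraries labelled KO with SLC25A12-WT and KO-vector cells, and 0 rose and 2 fell in WT-vector cells, where EIF2B3 fell by 0.19 (SE 0.04, edgeR adjusted p = 4.0e-06). Of all tested genes, 17.3% fell with antimycin A in dMTS-DELE1 cells and 24.7% to 26.4% in the other lines. Some comparisons of lines also held rises. In dMTS-DELE1 against F137S cells under antimycin A, 1 rose (EIF2B2, 0.09 ± 0.04, edgeR adjusted p = 0.034) and 2 fell. Of all tested genes 25.5% rose and 28.8% fell there. In KO-vector against WT-vector cells, 0 rose and 2 fell under antimycin A, and 1 rose (EIF2B5, 0.10 ± 0.03, edgeR adjusted p = 0.0025) and 2 fell in vehicle. Of all tested genes 23.5% rose and 24.5% fell under antimycin A there, and 22.7% rose and 25.6% fell in vehicle. In the libraries labelled KO with SLC25A12-WT against KO-vector cells, 1 rose and 2 fell under antimycin A, and 2 rose and 1 fell in vehicle. Here 24.7% of all tested genes rose and 23.5% fell under antimycin A, and 25.3% rose and 22.6% fell in vehicle. Of the catalytic subunits of protein phosphatase 1, which PPP1R15A and PPP1R15B recruit, 2 of 3 were lower in dMTS-DELE1 than in F137S cells in vehicle: PPP1CC (-0.20 ± 0.02, edgeR adjusted p = 5.0e-15) and PPP1CA (-0.17 ± 0.03, edgeR adjusted p = 1.6e-07). In the antimycin A response of WT-vector cells, PPP1CA rose by 0.13 ± 0.03 (edgeR adjusted p = 1.0e-05), PPP1CC fell by 0.19 (SE 0.02, edgeR adjusted p = 3.8e-14), and PPP1CB did not pass.

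Of 11 other initiation factors that meet eIF2, 3 rose and 6 fell in dMTS-DELE1 against F137S cells in vehicle, with a median of -0.08, against the 17.7% higher, 24.1% lower and median of -0.02 of all tested genes. EIF1 and EIF5, which guard the choice of start codon, rose by 0.34 ± 0.02 (edgeR adjusted p = 2.5e-27) and 0.31 ± 0.02 (edgeR adjusted p = 6.4e-23), while EIF2D, which can bring tRNA to the ribosome without eIF2, fell by 0.21 (SE 0.03, edgeR adjusted p = 5.5e-09). In the antimycin A response of WT-vector cells 3 rose and 6 fell as well, where 25.5% of all tested genes rose and 26.4% fell. Among them were EIF1 (0.29 ± 0.02, edgeR adjusted p = 1.8e-23), EIF1AX (-0.28 ± 0.02, edgeR adjusted p = 1.1e-20) and EIF5B (-0.26 ± 0.02, edgeR adjusted p = 4.2e-17). Among 9 regulators of the kinases, 3 rose and 5 fell in KO-vector against WT-vector cells in vehicle, where 22.7% of all tested genes rose and 25.6% fell. HSPA5, the chaperone that holds PERK inactive, averaged 953 CPM in KO-vector cells, against 1491 CPM in WT-vector cells (-0.65 ± 0.02, edgeR adjusted p = 9.7e-28). OMA1, the protease that cleaves DELE1, was lower by 0.38 on the log2 scale (-0.38 ± 0.04, edgeR adjusted p = 8.3e-12). DNAJC3, an inhibitor of PERK and PKR, was lower as well (-0.23 ± 0.03, edgeR adjusted p = 1.9e-09). NCK1 averaged 39.2 CPM in KO-vector cells, against 46.6 CPM in WT-vector cells. The 3 that rose were GCN1 (351 against 320 CPM), IMPACT (122 against 113 CPM) and PRKRA (86.4 against 76.9 CPM).

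The ISR output genes give the scale for PPP1R15A. In dMTS-DELE1 against F137S cells in vehicle, 15 of 15 rose with a median of 0.77, and under antimycin A 13 rose and 0 fell with a median of 0.92. Of all tested genes, 17.7% rose in vehicle and 25.5% under antimycin A, where 28.8% fell, with a median of -0.02 in each. The largest changes in vehicle were those of NUPR1 (3.37 ± 0.14, edgeR adjusted p = 5.3e-25), CHAC1 (2.62 ± 0.11, edgeR adjusted p = 2.0e-27), TRIB3 (2.30 ± 0.05, edgeR adjusted p = 8.3e-55) and ATF3 (1.75 ± 0.04, edgeR adjusted p = 5.7e-51), so that PPP1R15A at 1.98 stood between TRIB3 and ATF3. With antimycin A in WT-vector cells 13 of 15 rose and 2 fell, with a median of 0.86, above the 0.69 of PPP1R15A, where 25.5% of all tested genes rose. In KO-vector cells 12 rose and 2 fell, with a median of 0.62, above the 0.48 of PPP1R15A, where 26.4% of all tested genes rose. In KO-vector against WT-vector cells under antimycin A, 2 of the 15 were higher and 12 lower (23.5% and 24.5% of all tested genes), with a median of -0.30, beside the -0.10 of PPP1R15A that did not pass. In F137S against KO-vector cells, 3 of the 15 rose and 0 fell under antimycin A, with a median of 0.14. In vehicle 2 rose and 0 fell, with a median of 0.13. Of all tested genes, 0.114% and 0.0836% rose there, with medians of -0.0026 and 0.00024.

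**Figure D5:**
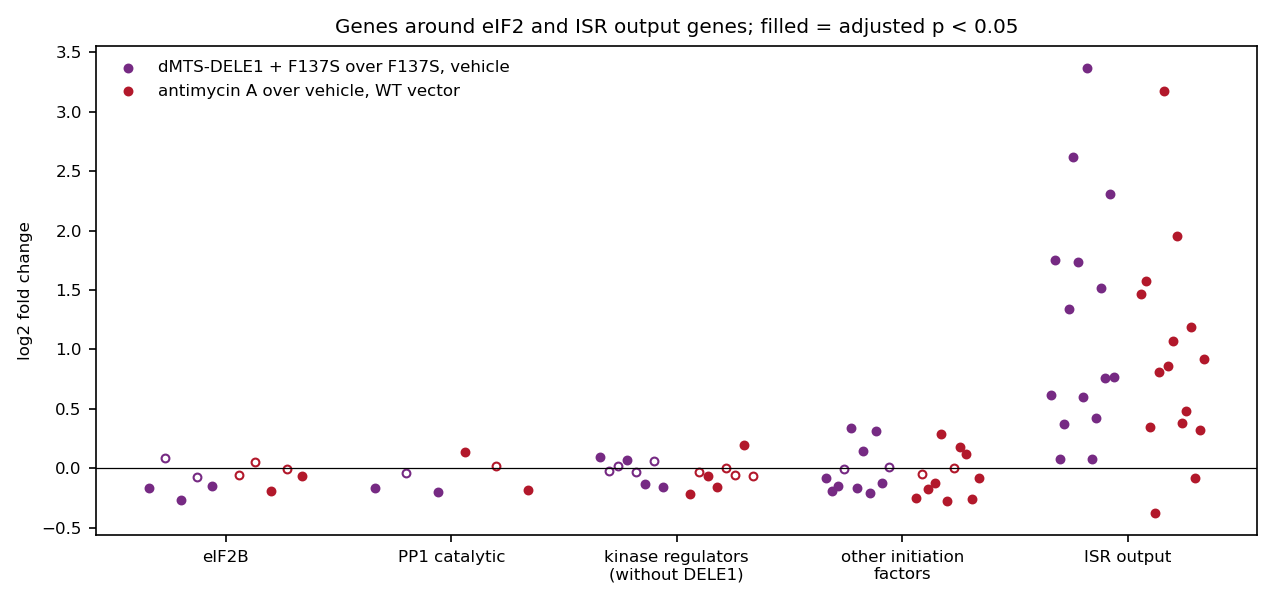
Log2 fold changes of the genes of 5 lists around eIF2 (points, 1 per gene), for dMTS-DELE1 over F137S cells in vehicle and for antimycin A over vehicle in WT-vector cells; filled points had an edgeR adjusted p below 0.05, and DELE1 is left out because it is the transgene. The ISR output genes reach 3.37 and 3.17, and the other lists stay within 0.4 of 0.

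Among 12499 genes with a mean log2 CPM of at least 1, those whose group means followed each of the 9 most closely were taken by Pearson's r over the 10 group means of log2 CPM. The 10 points share lines, treatments and libraries, so r is a description only. PPP1R15A, which spanned 2.66 log2 units, was followed by WDR31 (r = 0.995), ARHGEF2 (r = 0.994) and ERICH2 (r = 0.992). EIF2AK3, which spanned 0.48 log2 units, was followed by TMEM260 (r = 0.988), SEC23B (r = 0.985) and TAOK3 (r = 0.981). PPP1R15B, which spanned 0.68 log2 units, was followed by MEIOC (r = 0.989), PI4KA (r = 0.988) and E2F2 (r = 0.986). EIF2S1 was followed by CHCHD3 (r = 0.978), SMCHD1 (r = 0.978) and TTC37 (r = 0.976), and EIF2S2 by SECISBP2 (r = 0.966), YIPF3 (r = 0.959) and FLJ46875 (r = 0.954). EIF2S3 was followed by HOXC4 (r = 0.992), EIF2AK1 by RGS19 (r = 0.990), EIF2AK2 by LCMT1 (r = 0.959) and EIF2AK4 by NT5C (r = 0.972). By Spearman's rho, 22 of the 27 pairs so chosen were not among the 3 closest to their gene.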

How the data were processed

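The values the authors deposited are whole, unnormalized counts for each symbol in each library. HISAT2 2.1.0, featureCounts 2.0.6 and hg38 are named, per the submitters' processing notes, and the sources used here do not give the counting options, annotation or strand setting. Poly(A) RNA was read as paired ends, per the labels' protocols.

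Counts were filtered (filterByExpr), scaled by TMM and fitted over all 40 libraries with edgeR 4.0.16 in R 4.3.3 (robust quasi-likelihood), with 1 coefficient per group and 20 contrasts. Benjamini-Hochberg adjustment ran over 16739 genes, with calls at an adjusted p below 0.05. Log2 CPM add a prior count of 2. Exon lengths and gene coordinates are from GENCODE release 29 (GRCh38), and promoters from RefSeq (GRCh38.p14).

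The 9 genes, by symbol, and the lists were chosen with earlier results of these data known. Named are the 9 genes, SLC25A12 and DELE1, up to 4 called genes of largest change per list and the 3 closest genes in pattern. The kinase regulators that rose in KO-vector against WT-vector cells in vehicle are named as well. Genes that overlap the 9 were named after the annotation was read.

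Alternatives were DESeq2 size factors, the DESeq2 1.42.0 Wald test, no filter, a fit of only the groups concerned, a block for the replicate number, a minimum log2 change of 0.32, a fit without those labelled KO with SLC25A12-WT, each library left out, a prior count of 0.5, Spearman's rho and, added after seeing the data, the longest transcript as gene length. The tests were unpaired, since residuals of libraries with 1 number correlated at -0.00102 on average. The 60 pairs of libraries within groups differed by more than sampling noise (chi-square per gene from 2.95 to 5.80). The fit was tested on simulated data.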

Additional observations from a re-analysis of the deposited data

Results flagged for a closer look

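In KO-vector cells under antimycin A, replicate 3 stood apart for EIF2AK4 at 92.8 CPM, below the nearest other library at 99.9 CPM. In the same group, replicate 1 stood apart for EIF2S2 at 256 CPM, below the nearest other library at 262 CPM. Among 90 groups of 4 libraries examined for the 9 genes, these 2 were the ones that stood apart. Chance alone gives about 1 in 20, a higher rate than 2 of 90, so these flags mark no excess. Without replicate 3, EIF2AK4 was higher in KO-vector than in WT-vector cells under antimycin A (edgeR adjusted p = 0.0169), a comparison that did not pass with it (edgeR adjusted p = 0.082).

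The antimycin A response differed between lines by the test of the difference itself for 3 genes. EIF2S2 responded less in KO-vector than in WT-vector cells (log2 difference -0.13), where 1.57% of all tested genes differed. That call was lost without replicate 3 of WT-vector cells under antimycin A (edgeR adjusted p = 0.0551). PPP1R15B responded more in dMTS-DELE1 than in F137S cells (log2 difference 0.091), and EIF2S1, which fell in F137S cells, did not pass in dMTS-DELE1 cells (log2 difference 0.12). Of all tested genes, 11.9% differed between these 2 lines. The PPP1R15B call was lost without any 1 of 10 libraries (edgeR adjusted p from 0.0563 to 0.118).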

How the results depend on the processing

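With a further minimum log2 change of 0.32, the number of the 9 genes called with antimycin A was 1 each in F137S cells, in those labelled KO with SLC25A12-WT, in KO-vector cells and in WT-vector cells. Under that minimum it was 2 under antimycin A and 1 in vehicle for dMTS-DELE1 against F137S cells, 0 in both treatments for KO-vector against WT-vector cells and for the libraries labelled KO with SLC25A12-WT against KO-vector cells, and 0 for the differences of response of dMTS-DELE1 minus F137S cells and of KO-vector minus WT-vector cells. The share of all tested genes under that minimum is not given here, so these counts do not set the 9 genes apart. Leaving out 1 library at a time gave 1 to 3 calls for dMTS-DELE1 minus F137S cells, 0 to 2 for KO-vector minus WT-vector cells and 0 to 1 for the libraries labelled KO with SLC25A12-WT minus KO-vector cells. No other setting moved a count by over 1.5 times. Of 1197 values of single genes under settings that left no library out, 0 that were called in either fit reversed in sign. Another 18 values, called in neither fit, changed sign. Apart from the minimum log2 change, 12 values lost and 15 gained a call. Of 1800 values with a library left out, 34 lost and 22 gained a call, and 0 that were called in either fit reversed. With the replicate block, EIF2S2 in the antimycin A response of KO-vector cells (adjusted p = 0.0511) and EIF2S3 in dMTS-DELE1 against F137S cells under antimycin A (adjusted p = 0.0587) were lost, and no other call of the 9 changed. Residuals of libraries with 1 replicate number correlated from -0.0588 to 0.0510, so the numbers do not pair the libraries. The causes of these changes were not tested. Among counts from 1 to 20, 55.1% to 58.7% per library were even. The SE of an antimycin A response of the 9 genes was 0.02 to 0.05 on the log2 scale with 4 libraries a group.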

Other observations

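The antimycin A response was also compared between lines for the lists around eIF2. For dMTS-DELE1 minus F137S cells, 1 of 15 ISR output genes had a higher and 7 a lower response, where 8.24% of all tested genes had a higher and 3.7% a lower one. CHAC1 stood at -1.30 ± 0.15 (edgeR adjusted p = 5.4e-09) and SESN2 at -0.60 ± 0.04 (edgeR adjusted p = 5.3e-15). All 15 were already higher in dMTS-DELE1 than in F137S cells in vehicle. CHAC1 went from 18.3 CPM in vehicle to 24.0 CPM under antimycin A in dMTS-DELE1 cells, and from 2.97 to 9.63 CPM in F137S cells. SESN2 went from 265 to 309 CPM and from 92.6 to 164 CPM. A lower log2 response was thus not a lower level under antimycin A for these 2 genes. CHAC1 degrades glutathione. Higher responses in dMTS-DELE1 cells were those of DNAJC3 (0.22 ± 0.04, edgeR adjusted p = 0.00012), EIF2B3 (0.20 ± 0.05, edgeR adjusted p = 0.0039), EIF1 (0.12 ± 0.03, edgeR adjusted p = 0.00038) and PPP1CC (0.09 ± 0.03, edgeR adjusted p = 0.013). For KO-vector minus WT-vector cells, 0 of 15 ISR output genes had a higher and 8 a lower response, where 0.836% and 0.729% of all tested genes did. Among the 8 were CHAC1 (-1.26 ± 0.18, edgeR adjusted p = 2.3e-06) and DDIT4 (-0.44 ± 0.05, edgeR adjusted p = 4.8e-08). HSPA5 had a higher response (0.20 ± 0.03, edgeR adjusted p = 5.6e-05), and EIF1 (-0.19 ± 0.03, edgeR adjusted p = 4.1e-07) and EIF5 (-0.14 ± 0.03, edgeR adjusted p = 0.0019) had lower ones. The 2 comparisons share no libraries.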
